A study of Homo sapiens with 6 samples.

Results

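LAPTM5 and CORO1A, 2 of the 26255 gene symbols measured, are genes best known from white blood cells that were expressed in BxPC-3, an established epithelial cell line from a human pancreatic cancer. They were chosen from the levels themselves: both were expressed in parent cells and both were known to be lower after miR-4711-5p. Their values with miR-4711-5p are therefore given as a description, without a test. RNA-seq gave 6 libraries, 2 from each of 3 groups, collected 36 h after the start of treatment by the study's methods. The parent group was untreated BxPC-3, the NC-1 group received a negative control treatment, and the miR-4711-5p group received this miRNA, all on the same single cell line. The libraries were compared to find which mRNAs fall when the miRNA is added. Values are FPKM, reads scaled to transcript length and library size. Depth is known only in relative terms: over 854 to 976 genes of under 0.1 FPKM, the FPKM that 1 read adds was most often 1.15 times that of parent 1 in parent 2, 1.33 and 1.17 times in NC-1, and 0.93 and 0.829 times in miR-4711-5p, on 29.1% to 36.9% of those genes. No source used here says that the 2 libraries of a group came from separate cultures, and p-values then measure only the spread between these libraries.

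LAPTM5 is a membrane protein of lysosomes that was described in blood cells, where it binds ubiquitin ligases of the NEDD4 family and carries receptors such as the T cell and B cell antigen receptors to lysosomes for breakdown. CORO1A, or coronin 1A, binds actin filaments and the Arp2/3 complex, which starts new actin branches, and is needed for the migration and survival of T cells. Both are used as leukocyte genes, but neither is exclusive to leukocytes, and carcinoma lines can express them. A miRNA pairs with mRNAs mainly through its seed, bases 2 to 8, and the sites that most often lower an mRNA lie in its 3′ UTR.

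The mature miR-4711-5p of RefSeq has 23 bases and is shown first because the site search rests on it, with its seed in capitals. The sites found in CORO1A and in its relative CORO2A follow, each with the matching bases in capitals and the surrounding mRNA strand in lower case.
miR-4711-5p: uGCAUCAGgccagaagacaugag
CORO1A, coding sequence, chr16:30198161-30198167, plus strand: cagatgggggcCTGATGCtgcccctgcggg
CORO2A, 3′ UTR, chr9:100884214-100884221, minus strand: ctcactcccgtCTGATGCActagccaagat
CORO2A, 3′ UTR, chr9:100885483-100885490, minus strand: ctcttttgggtCTGATGCAgttctcagccc
These positions are on GRCh37, the assembly also called hg19 that the files use, with GENCODE v44 gene models lifted to it.

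LAPTM5 (ENSG00000162511.8_8) lies on chr1:31205316-31230621, minus strand, with 8 exons, a coding sequence of 789 nt and a 3′ UTR of 1359 nt. Its mRNA of 2177 nt held no site for the seed in the 3′ UTR, the coding sequence or the 5′ UTR, not even the shortest form of 6 bases. CORO1A (ENSG00000102879.17_9) lies on chr16:30194923-30200397, plus strand, with 11 exons, a coding sequence of 1386 nt and a 3′ UTR of only 112 nt. No site was found in that 3′ UTR. The site in the coding sequence pairs with the whole seed, was present in 8 of 8 annotated coding transcripts, and gave 10 base pairs without a gap, from position 2 to position 11 of the miRNA counted from its 5′ end. Coding sites of 7 bases were not particular to it: the canonical mRNAs of its relatives CORO1B and CORO7 held 2 each. For comparison, 17% of the 11150 tested genes with an annotated 3′ UTR held a site of 7 or 8 bases there, and 24.3% held such a site in the coding sequence. A match is a description of letters and not evidence of binding.

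The promoters of both genes are shown because the genes are called leukocyte genes and yet were transcribed in this line. Each sequence runs from 250 bases before to 50 bases after the RefSeq start on GRCh38.p14, in the direction of transcription. Capitals mark GGAAGT, a form of the motif bound by ETS family factors such as those of blood cells, and GGGCGG, the GC box. Both were searched on both strands (the latter reads CCGCCC where it lies on the other strand). Shorter and other forms of the ETS motif were not searched.
LAPTM5 promoter, chr1:30757725-30758024, minus strand: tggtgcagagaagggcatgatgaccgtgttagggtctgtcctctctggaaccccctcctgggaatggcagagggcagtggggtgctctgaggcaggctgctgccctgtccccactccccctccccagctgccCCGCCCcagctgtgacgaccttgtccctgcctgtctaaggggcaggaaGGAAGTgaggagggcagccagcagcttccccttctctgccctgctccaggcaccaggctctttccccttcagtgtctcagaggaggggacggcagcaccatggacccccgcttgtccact
CORO1A promoter, chr16:30183352-30183651, plus strand: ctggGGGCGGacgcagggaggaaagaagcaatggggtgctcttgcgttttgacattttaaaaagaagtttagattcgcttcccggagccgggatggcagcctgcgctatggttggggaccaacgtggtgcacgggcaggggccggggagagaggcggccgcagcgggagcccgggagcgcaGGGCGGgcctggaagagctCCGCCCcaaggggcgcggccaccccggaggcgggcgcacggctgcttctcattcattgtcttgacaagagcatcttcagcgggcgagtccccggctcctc
The LAPTM5 window held 5 CpG dinucleotides, 1 GGAAGT 70 bases before the start and 1 GC box 118 bases before it. The CORO1A window held 26 CpG dinucleotides and 3 GC boxes, and no GGAAGT, which does not exclude other forms of the ETS motif. The median over 35116 RefSeq promoters was 14 CpG, and 22.8% of them held GGAAGT, 45% held GGGCGG and 11.5% held TATAAA, which neither of the pair contained.

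In parent cells, LAPTM5 was measured at 249 and 252 FPKM, which placed it 310th among the 26255 symbols in both libraries. In the NC-1 libraries it was 272 and 277 FPKM. In the miR-4711-5p libraries it was 160.0 and 160.3 FPKM, and it stood 450th and 453rd. Both miR-4711-5p libraries lay below all 4 control libraries, as they did for 26.3% of all tested genes. The mean was 250.9 ± 2.0 FPKM in parent, 275 ± 3.6 in NC-1 and 160.1 ± 0.24 in miR-4711-5p (SD, n = 2). The level with miR-4711-5p was 63.8% of parent and 58.3% of NC-1.

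CORO1A was lower in level per length than LAPTM5 in every library. It was 44.1 and 39.4 FPKM in parent, 44.7 and 40.7 in NC-1, and 16.5 and 17.4 in miR-4711-5p. Both miR-4711-5p libraries again lay below all 4 controls, while the parent and NC-1 libraries overlapped. The means were 41.8 ± 3.3, 42.7 ± 2.8 and 17.0 ± 0.63 FPKM (SD, n = 2), so the level with miR-4711-5p was 40.6% of parent and 39.7% of NC-1. The ratio of LAPTM5 to CORO1A was between 5.65 and 6.80 in the 4 control libraries, and 9.69 and 9.21 with miR-4711-5p, so CORO1A was reduced to a lower share of its control level than LAPTM5. Part of the CORO1A mRNA is not unique in the genome: its last 218 nt (13.4% of the 1623 nt), from position 1406 on, are identical to chr16:29460841-29461058, whereas LAPTM5 had no such copy of 75 nt or more. How the counting shared reads over that copy is not stated in the sources used here.

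**Figure D1:**
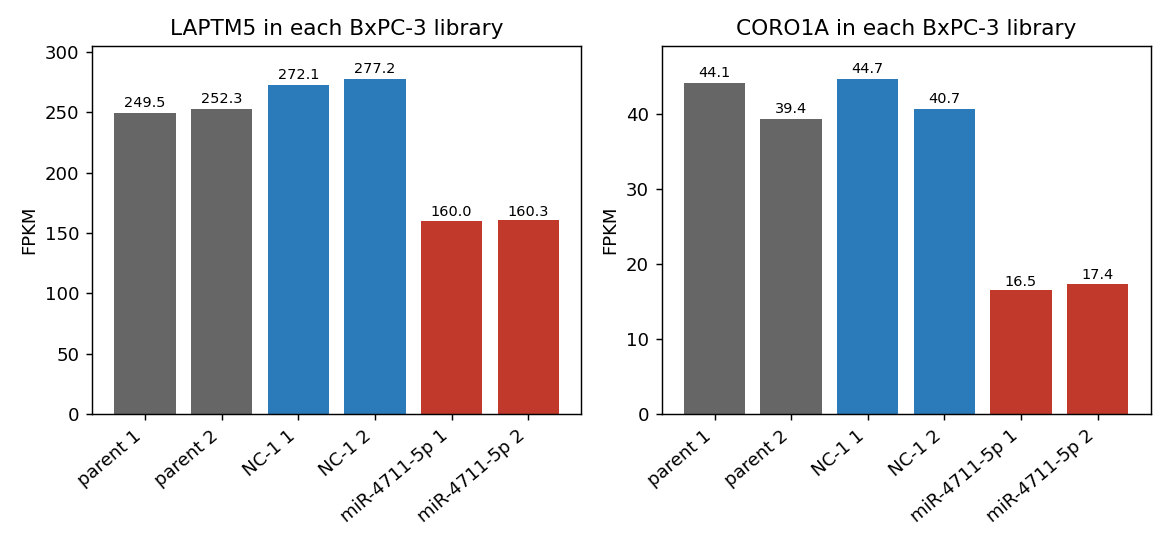
FPKM of LAPTM5 (left) and CORO1A (right) in each of the 6 BxPC-3 libraries, 1 bar per library, with the value above it and axes that start at 0. The miR-4711-5p bars (160.0 and 160.3 for LAPTM5, 16.5 and 17.4 for CORO1A) are below all 4 control bars. The NC-1 bars of LAPTM5 are at 272 and 277.

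On log2(FPKM + 1), limma fitted over 12040 genes gave LAPTM5 a difference of -0.64 (SE 0.037) for miR-4711-5p against parent and -0.77 (SE 0.037) against NC-1. CORO1A differed by -1.25 (SE 0.072) against parent and -1.28 (SE 0.072) against NC-1. Ordered by decrease, CORO1A stood at place 83 and LAPTM5 at place 514 of 12040 against parent, and at 88 and 343 against NC-1, where the libraries with miR-4711-5p are shared. Decreases were frequent in these libraries: 24.7% of tested genes were called lower and 18.7% higher against parent, 21.2% lower and 18.4% higher against NC-1 (limma, Benjamini-Hochberg adjusted p under 0.05). As the pair was selected on this contrast, nothing is read from its place in these counts.

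NC-1 against parent was not used in the choice, and it was tested. LAPTM5 was higher in NC-1 by 0.13 on the log2 scale (SE 0.037, limma adjusted p = 0.0403), a rise to 109% of the parent level, in a comparison where 12.1% of tested genes were called higher and 15.1% lower. This call was lost under 10 of the 15 other settings, with an adjusted p of 0.0618 with a replicate block and up to 0.131 when single libraries were left out. CORO1A differed between NC-1 and parent by 0.03 (SE 0.072, limma adjusted p = 0.775), and this difference became -0.05 without the parent 2 library and -0.03 without the NC-1 1 library. With 2 libraries against 2, an exact permutation test could not go below p = 0.333.

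The total FPKM moved with the groups. It was 543074 and 550772 in parent, 515348 and 515688 in NC-1, and 493145 and 499659 in miR-4711-5p. The median-of-ratios factor is a library's median ratio to the geometric mean of each gene, over genes above 0 in all libraries. It was between 1.00584 and 1.00715 in all 6 libraries as deposited. Setting equal totals moves the libraries away from that match. After all libraries were set to the same total, the median of all tested genes for miR-4711-5p against parent moved from -0.01 to 0.11 on the log2 scale, and the share of called genes that were higher moved from 43.1% to 69.3%. LAPTM5 was then -0.51 and CORO1A -1.12 against parent, and -0.72 and -1.23 against NC-1. Smaller differences changed sign on that scale, as did those of HCLS1, LAMP2, ITCH and YPEL3 against parent. LAPTM5 in NC-1 against parent was 0.21 (limma adjusted p = 0.0075) on that scale.

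**Figure D2:**
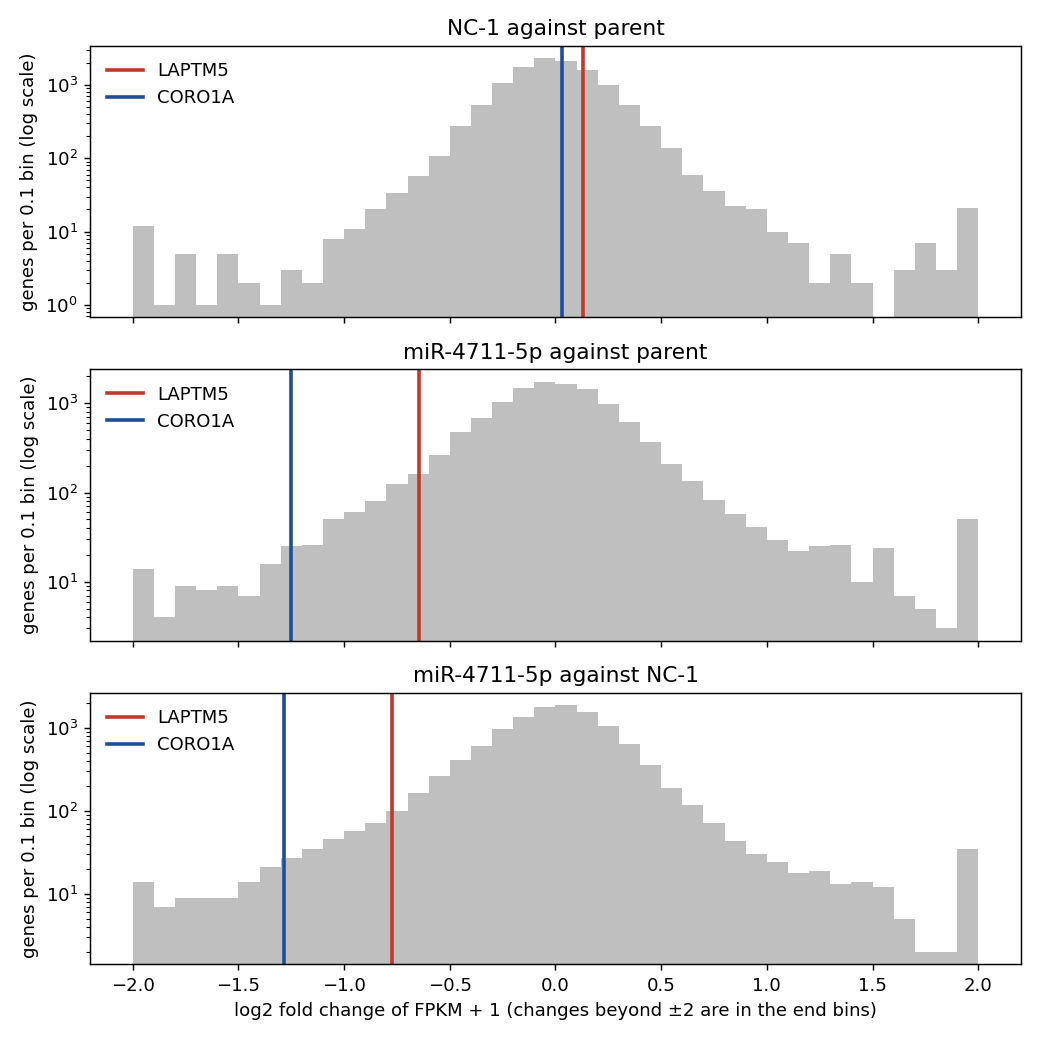
Number of tested genes (y axis, log scale) by log2 fold change of FPKM + 1 (x axis, bins of 0.1, with larger changes in the end bins) in the 3 comparisons, with vertical lines for LAPTM5 and CORO1A. For NC-1 against parent both lines (0.13 and 0.03) lie near 0, and against parent with miR-4711-5p they lie at -0.64 and -1.25.

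The levels of other leukocyte genes in these libraries show what the pair was expressed with. Of 13 genes that define leukocytes, 12 stayed under 1 FPKM in all 6 libraries, and TYROBP, LCP2, IKZF1 and SPI1 were listed at 0 in all of them. PTPRC, the CD45 antigen found on all nucleated blood cells, was at most 0.0253 FPKM. ITGB2, the β2 chain of leukocyte integrins, was the exception, at 3.19 and 2.88 FPKM in parent, 2.07 and 2.53 in NC-1 and 1.20 and 1.21 with miR-4711-5p, and it fell by 0.87 on the log2 scale against parent (limma adjusted p = 0.000834). The summed level of the 13 genes was 3.43 to 3.58 FPKM in parent, 2.53 to 3.37 in NC-1 and 1.45 to 2.05 with miR-4711-5p. LAPTM5 alone was at 160.0 FPKM or more in every library. In bulk RNA, fewer cells of a type and less RNA per cell cannot be told apart.

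T cell genes gave the same picture apart from LCK. Of 8 T cell genes, 7 stayed under 1 FPKM, with CD3G and CD2 at 0 in all libraries, while LCK, a SRC family kinase of T cell receptor signalling that some carcinoma lines express, was 9.14 and 8.88 FPKM in parent, 9.99 and 10.3 in NC-1 and 4.03 and 3.85 with miR-4711-5p. LCK fell by 1.02 on the log2 scale against parent (limma adjusted p = 2.81e-05). None of 4 B cell genes reached 1 FPKM in any library, and their sum was at most 0.509 FPKM. Among 6 myeloid genes, CD68, which is also found in lysosomes of other cells, was the highest at 11.3 to 15.3 FPKM, CD14 was between 0.897 and 2.18 FPKM, CD74 between 0.535 and 1.09, and AIF1 was at 0. Fibroblast genes summed to at most 2.42 FPKM, nearly all of it COL1A1, a collagen chain, erythroid and platelet genes to at most 1.38, with HBA1 at 1.04 FPKM in parent 1 and at most 0.17 elsewhere, and endothelial genes to at most 3.53 FPKM, reached in NC-1. CDH5, a cadherin of endothelium, made up most of that last sum, with 0.995 and 0.929 FPKM in parent, 3.16 and 2.88 in NC-1 and 0.612 and 0.469 with miR-4711-5p. All 6 epithelial genes were expressed, with a sum between 5195 and 6247 FPKM.

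Some of the epithelial genes moved in the same libraries as the pair, and their part in its values was not tested. CDH1, E-cadherin of epithelial junctions, was 114 and 117 FPKM in parent, 109.4 and 109.6 in NC-1 and 28.3 and 30.9 with miR-4711-5p, and it fell by 1.93 on the log2 scale against parent (SE 0.051, limma adjusted p = 2.81e-06). The keratin KRT19 fell by 0.85 (limma adjusted p = 2.58e-05), from 1699.6 and 1559 FPKM to 890.1 and 912, and was 1294 and 1254 in NC-1. KRT18 was 1116 and 1070.1 FPKM in parent and 1251 and 1251 with miR-4711-5p, higher by 0.19 (limma adjusted p = 0.0138, passed in 11 of 15 other settings). KRT7 and KRT8 differed from parent by -0.09 (adjusted p = 0.144) and -0.09 (adjusted p = 0.233), both of which were 0.05 at equal total FPKM, and EPCAM, an adhesion molecule, by 0.11 (adjusted p = 0.0801), which was 0.24 (limma adjusted p = 0.00368) at equal total FPKM. Of the 6 genes, 2 were lower and 1 higher against parent, beside 24.7% lower and 18.7% higher over all tested genes. Against NC-1, 3 were lower (CDH1, KRT7 and KRT19) and 3 higher (EPCAM, KRT8 and KRT18), beside 21.2% and 18.4%. For NC-1 against parent, KRT8 and KRT19 were lower and 0 were higher, beside 15.1% and 12.1%.

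A second group of genes, enriched in leukocytes but acting in the cytoskeleton or in signalling, was expressed beside the pair. Of 8 such genes 5 were tested. ARHGDIB was 436 and 428 FPKM in parent, 439 and 425 in NC-1 and 273 and 276 with miR-4711-5p. It fell by 0.65 on the log2 scale against parent (SE 0.039, limma adjusted p = 2.67e-05). Both miR-4711-5p libraries lay below all controls, as they did for 26.3% of tested genes. LCP1, the actin-bundling protein plastin 2, was 155.0 and 155.4 FPKM in parent and 138 and 139 with miR-4711-5p, a difference of -0.16 (limma adjusted p = 0.0424) that passed in 6 of 15 other settings and failed when any single parent or miR-4711-5p library was left out (adjusted p 0.0151 to 0.712 over all settings). SRGN, a proteoglycan of secretory granules, rose by 0.34 (limma adjusted p = 0.00159), from 40.2 and 38.8 FPKM to 51.6 and 48.8, and was as high in NC-1 at 50.4 and 51.8 FPKM. RAC2, a small GTPase, was between 156 and 188 FPKM in all libraries and was not called in any comparison, but at equal total FPKM it was higher against parent by 0.28 (limma adjusted p = 0.00694). HCLS1, an actin-binding relative of cortactin, was 140.4 and 138 FPKM in parent, 103 and 98.7 in NC-1 and 129 and 132 with miR-4711-5p, so it fell in NC-1 (-0.46, limma adjusted p = 0.00114) and its difference with miR-4711-5p was -0.09 (adjusted p = 0.13). In this list, 2 genes were lower and 1 higher of 5 tested against parent, with a median of -0.09 beside -0.01 over all tested genes, of which 24.7% were lower and 18.7% higher. At equal total FPKM, 1 was lower and 2 were higher, beside 1776 lower and 4010 higher of the 12040 tested genes. LSP1, CYTIP and DOCK2 stayed under 1 FPKM.

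**Figure D3:**
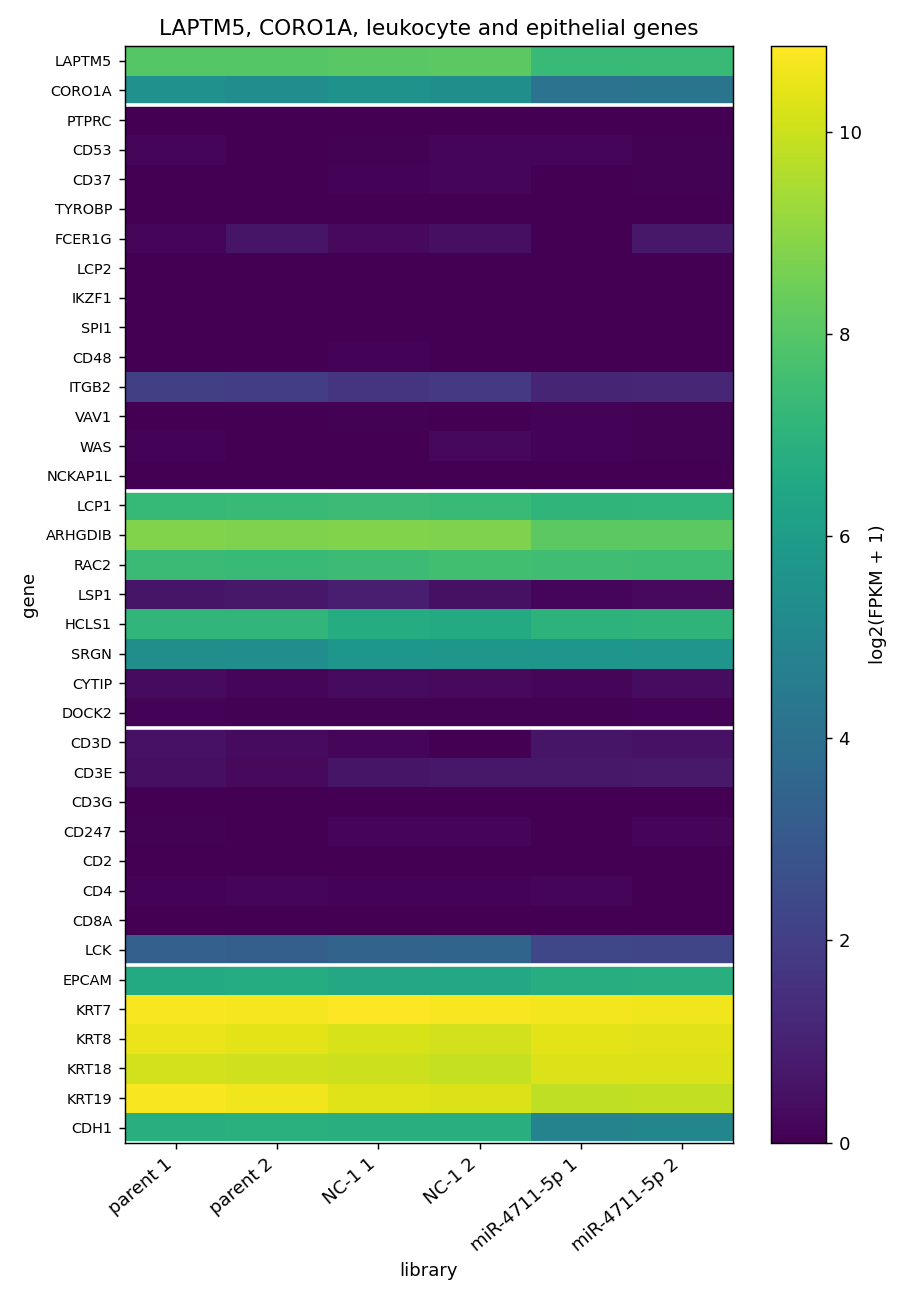
Heat map of log2(FPKM + 1) in each library (columns) for LAPTM5 and CORO1A, then, between white lines, genes that define leukocytes, leukocyte-enriched genes of the cytoskeleton and signalling, T cell genes and epithelial genes. Apart from ITGB2 and LCK, the defining leukocyte and T cell genes stay under 1 FPKM in every library, while LAPTM5, CORO1A, LCP1, ARHGDIB, RAC2, HCLS1, SRGN and the epithelial genes are expressed.

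The LAPTM family has 3 members, which sit in membranes of late endosomes and lysosomes. LAPTM4A was 39.0 and 37.4 FPKM in parent, 34.8 and 35.4 in NC-1 and 14.9 and 13.9 with miR-4711-5p. It fell by 1.35 on the log2 scale against parent (SE 0.055, limma adjusted p = 5.88e-06) and by 1.23 against NC-1 (adjusted p = 1.01e-05), and like LAPTM5 its mRNA held no site for the seed. LAPTM4B, a family member studied for raised levels in carcinomas, was between 96.5 and 109 FPKM in all 6 libraries, with a difference of 0.01 (SE 0.056, limma adjusted p = 0.892) against parent. LAPTM5 was thus the most abundant per length. With miR-4711-5p, LAPTM5 and LAPTM4A were below all control libraries, as 26.3% of tested genes were, while LAPTM4B overlapped them.

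The coronins share a WD repeat domain. Of the 6 relatives of CORO1A, 4 were tested, and CORO2B and CORO6 stayed under 1 FPKM. CORO2A was 19.4 and 18.6 FPKM in parent, 21.0 and 18.9 in NC-1 and 7.34 and 7.25 with miR-4711-5p. It fell by 1.27 (SE 0.064, limma adjusted p = 1.36e-05) against parent, and it carries the pair of 8-base sites printed above in a 3′ UTR of 3799 nt. CORO1B, the form most widespread outside blood, was 103 and 92.6 FPKM in parent and 86.0 and 83.4 with miR-4711-5p, a difference of -0.20 (limma adjusted p = 0.0262) that passed in 9 of 15 other settings and was -0.07 (adjusted p = 0.359) at equal total FPKM. CORO1C lay between 65.0 and 68.9 FPKM throughout, with a difference of 0.06 (limma adjusted p = 0.27) that was 0.20 (adjusted p = 0.00784) at equal total FPKM. CORO7, a coronin of the Golgi, was 5.76 and 5.95 FPKM in parent and 6.999 and 7.14 with miR-4711-5p, higher by 0.24 (limma adjusted p = 0.0277), a call that was lost without a filter and when either parent or either miR-4711-5p library was left out. Against NC-1, CORO7 differed by 0.14 (limma adjusted p = 0.146). Of the 4 tested relatives, 2 were lower and 1 higher against parent, beside 24.7% and 18.7% over all genes. On the scale of equal total FPKM 1 was lower and 2 were higher, beside 1776 lower and 4010 higher of the 12040 tested genes. For NC-1 against parent 0 of 4 were called by limma, beside 15.1% lower and 12.1% higher over all genes, and 0 of 4 had an unadjusted p under 0.05. In that comparison 1, CORO1C, was higher at equal total FPKM (limma adjusted p = 0.0377), beside 1000 lower and 2327 higher of the 12040 tested genes. For miR-4711-5p against parent, only CORO2A kept its call without a filter, without the parent 1 library or without either miR-4711-5p library. In FPKM in parent cells the order was CORO1B, CORO1C, CORO1A, CORO2A and CORO7, with no overlap between neighbours.

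**Figure D4:**
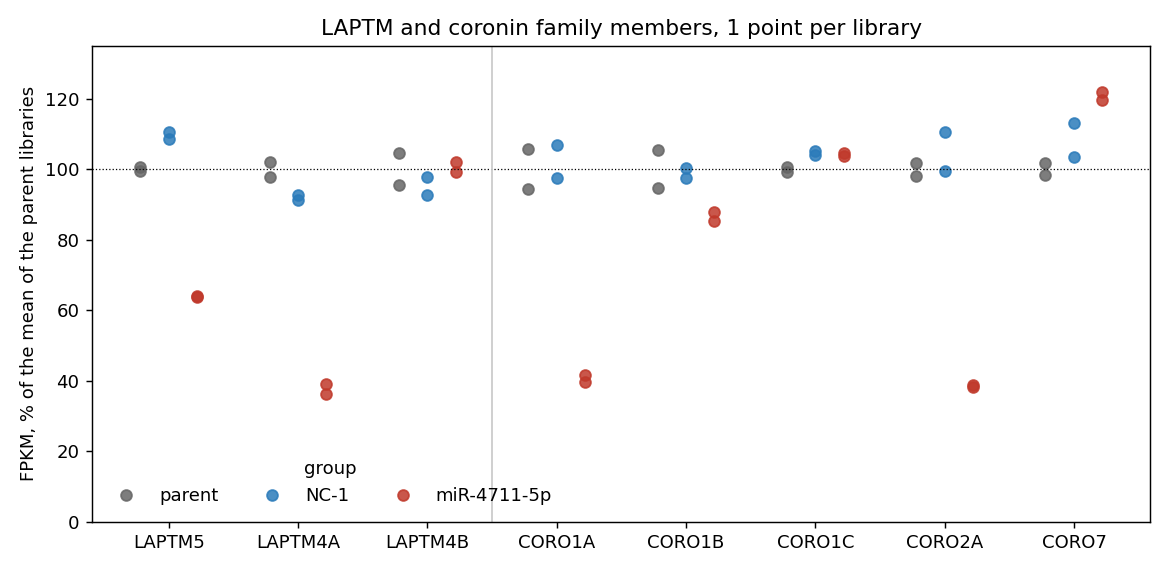
FPKM of each tested LAPTM and coronin gene as a percentage of the mean of the parent libraries (y axis), 1 point per library, coloured by group. With miR-4711-5p, LAPTM5 lies near 64%, and LAPTM4A, CORO1A and CORO2A lie near 40%, while LAPTM4B and CORO1C lie near their parent level.

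The partners of coronin 1A in actin turnover were described from a list of 31 genes, all tested. Against parent, 17 were lower and 3 higher with miR-4711-5p, with a median of -0.19, beside 24.7% lower and 18.7% higher over all genes. Against NC-1, 14 were lower and 3 higher, beside 21.2% and 18.4%. At equal total FPKM, 12 were lower and 6 higher against parent, beside 1776 lower and 4010 higher of the 12040 tested genes. For NC-1 against parent, 3 were lower and 4 higher, beside 15.1% and 12.1% over all genes. Fewer were called without the parent 1 library, as over all genes. On the scale of equal total FPKM 2 were lower and 9 higher, beside 1000 lower and 2327 higher of the 12040 tested genes. CFL1, cofilin 1, which severs actin filaments, was the most abundant at 1437 and 1420 FPKM in parent and 1129 and 1150 with miR-4711-5p (-0.33, limma adjusted p = 0.000449). PFN1, profilin 1, which loads actin monomers, fell by 0.29 with miR-4711-5p (limma adjusted p = 0.000963) and by 0.29 in NC-1 (adjusted p = 0.00287). CAP1, which recycles actin monomers, fell by 0.31 (limma adjusted p = 0.000669), and ARPC2, an Arp2/3 subunit, by 0.24 (limma adjusted p = 0.00372), which was -0.10 (adjusted p = 0.0872) at equal total FPKM. The largest changes were in SSH3, a phosphatase of the slingshot family, which went from 59.2 and 55.6 FPKM to 28.3 and 31.8 (-0.91, limma adjusted p = 6.06e-05), and in CFL2 and GMFB, which rose. CFL2, the muscle form of cofilin, went from 8.24 and 9.49 FPKM in parent to 20.2 and 17.7 with miR-4711-5p, but it was also higher in NC-1 at 14.3 and 16.0 FPKM. GMFB, a glia maturation factor that debranches Arp2/3 networks, was 14.0 and 18.0 FPKM in parent, 23.2 and 27.4 in NC-1 and 29.6 and 25.4 with miR-4711-5p. Named after their values were seen, the Arp2/3 subunits ACTR3 and ARPC1B went from 51.5 and 53.4 to 32.0 and 31.7 FPKM and from 245 and 221 to 145 and 143 FPKM. Both subunits lay below all 4 controls with miR-4711-5p, as did 26.3% of tested genes. Among the other Arp2/3 subunits, ARPC1A, ARPC2, ARPC4 and ARPC5 were called lower against parent, and ACTR2, ACTR3B, ARPC3 and ARPC5L were not called. Against NC-1, ACTR2 was higher by 0.36 (limma adjusted p = 0.00194) and ARPC5L by 0.26 (limma adjusted p = 0.00304).

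For LAPTM5, the list held 16 genes of its sorting (the NEDD4 family ligases and the GGA adaptors) and of the lysosome membrane, all tested. With miR-4711-5p, 4 were lower and 5 higher against parent, with a median of 0.07, beside 24.7% lower and 18.7% higher over all genes. On the scale of equal total FPKM 1 was lower and 9 higher, beside 1776 lower and 4010 higher of the 12040 tested genes. Against NC-1, 6 were lower and 2 higher, beside 21.2% and 18.4%. For NC-1 against parent, 6 were higher and 0 lower, with a median of 0.16, beside 12.1% higher and 15.1% lower over all genes. On the scale of equal total FPKM 9 were higher, beside 2327 higher and 1000 lower of the 12040 tested genes. Fewer were called without the parent 1, either NC-1 or either miR-4711-5p library, as over all genes. Without the miR-4711-5p 1 library, fewer than these were called for miR-4711-5p against parent, again as over all genes. NEDD4, the ligase that binds LAPTM5, was 16.4 and 16.7 FPKM in parent, 18.6 and 19.6 in NC-1 and 12.0 and 12.5 with miR-4711-5p. It fell by 0.41 against parent (limma adjusted p = 0.00107) and was named for the size of this change. Of the other ligases in the list, WWP1 was also lower against parent, by 0.28 (limma adjusted p = 0.00967). NEDD4L was higher by 0.33 (limma adjusted p = 0.00323) and WWP2 by 0.26 (limma adjusted p = 0.00497), and ITCH differed by -0.04 (limma adjusted p = 0.618). ITCH, another ligase of the family, was 34.9 and 35.5 FPKM in parent, 44.7 and 41.8 in NC-1 and 35.3 and 33.3 with miR-4711-5p. It was higher in NC-1 than in parent by 0.29 (limma adjusted p = 0.00991). GGA1, an adaptor for transport from the Golgi, rose by 0.38 (limma adjusted p = 0.00372). Among lysosome membrane proteins, CD63 was the most abundant, with 647 and 660 FPKM in parent and 563 and 592 with miR-4711-5p, a difference of -0.18 (limma adjusted p = 0.0307) that passed in 8 of 15 other settings and was -0.04 at equal total FPKM. LAMP1 differed by -0.15 (limma adjusted p = 0.0192), passed in 9 of 15 other settings and was -0.01 at equal total FPKM, LAMP2 differed by -0.09 (adjusted p = 0.205), and NPC1, a cholesterol transporter, rose by 0.35 (limma adjusted p = 0.00126). NPC1 was also higher in NC-1 than in parent, by 0.26 (limma adjusted p = 0.009). Between miR-4711-5p and NC-1 it differed by 0.08 (limma adjusted p = 0.201).

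**Figure D5:**
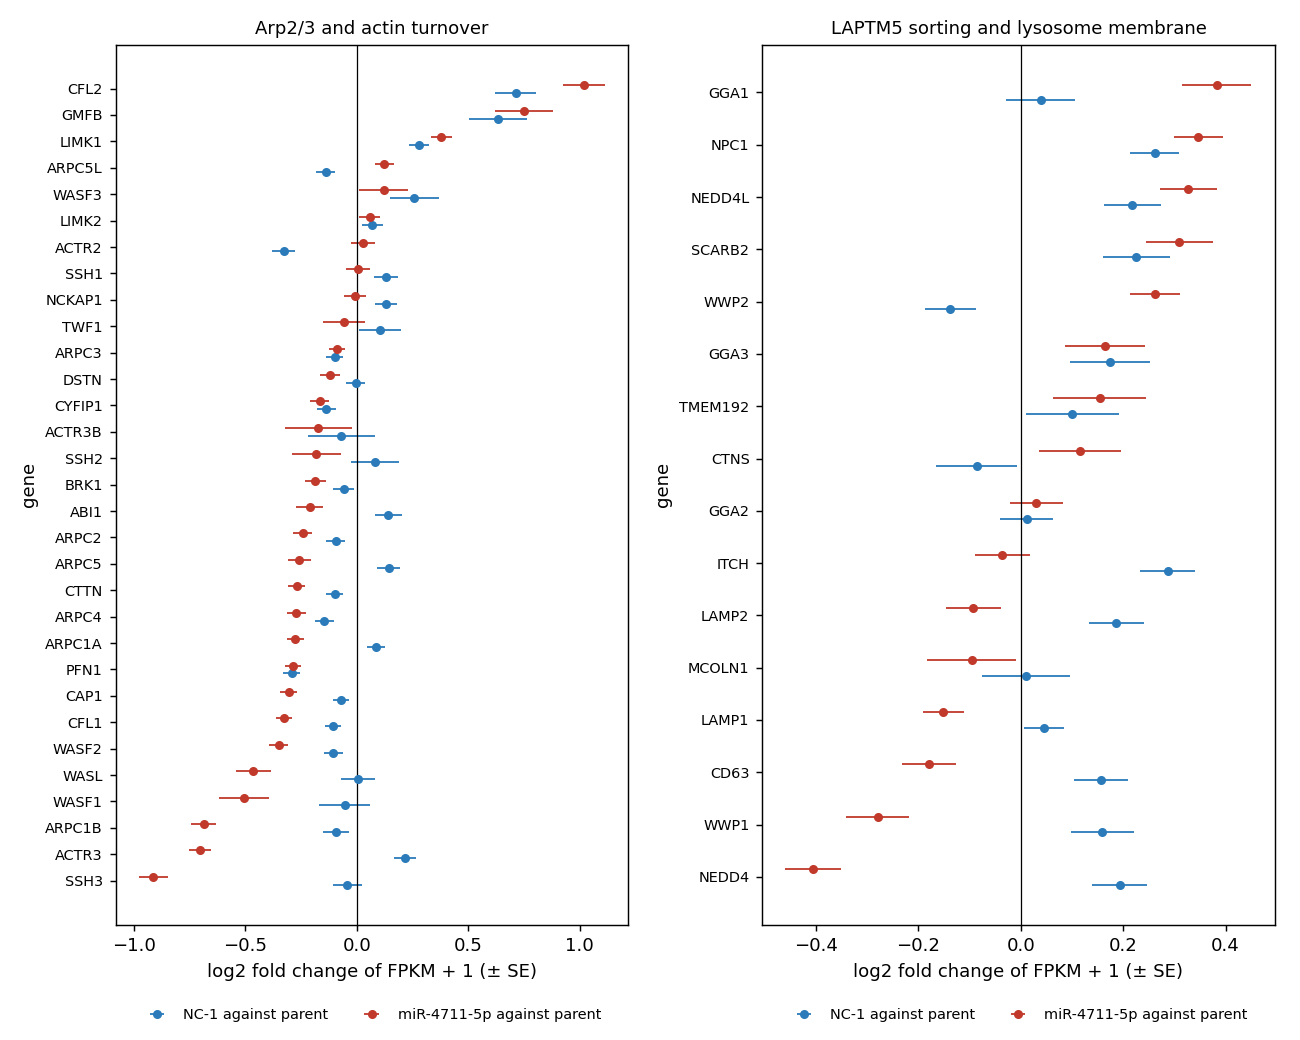
Log2 fold change of FPKM + 1 with its SE (x axis) for each gene (y axis) of the actin turnover list (left, 31 genes) and the list of LAPTM5 sorting and lysosome membrane (right, 16 genes), for miR-4711-5p against parent (red) and NC-1 against parent (blue). In the left panel 17 genes were called lower with miR-4711-5p against parent (24.7% over all tested genes), down to SSH3 at -0.91. In the right panel genes lie on both sides of 0.

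The genes whose pattern over the 6 libraries was nearest to LAPTM5, by the distance between centred log2 values, were LPCAT4, SEL1L, ACSL1, PODXL and CELSR2, each within 0.105 and with r of at least 0.994 over 6 libraries. For example, LPCAT4, an enzyme of phospholipid remodelling, was 68.4 and 67.3 FPKM in parent, 70.5 and 74.8 in NC-1 and 41.5 and 40.9 with miR-4711-5p. Those nearest to CORO1A were KPNB1, CORO2A, MRPS14, ERLIN1 and PTGS1, each within 0.163. Of these 5 genes, 4 held a site of 7 or 8 bases in the 3′ UTR (CORO2A, ERLIN1, KPNB1 and MRPS14), against 1 of the 5 nearest to LAPTM5 (SEL1L) and 17% of tested genes. With Pearson r as the measure the genes were others, and 4 of 5 for CORO1A and 3 of 5 for LAPTM5 held such a site, so the counts depend on the measure. All points share the same 6 libraries, and most of the spread is the step to miR-4711-5p. Likeness to the pair thus picks genes that were lower with miR-4711-5p. No share of sites over equally lowered genes was taken, so nothing is read from these counts beside the 17%.

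Neighbouring genes on the chromosome were examined as a description of each locus. Beside LAPTM5, PTPRU, a receptor tyrosine phosphatase 1551991 bases away, went from 37.6 and 35.5 FPKM in parent to 28.3 and 28.5 with miR-4711-5p (-0.35, limma adjusted p = 0.00192). SDC3 on the other side differed by 0.01 (limma adjusted p = 0.964). MATN1-AS1, the closest, was at 1.08 to 1.97 FPKM with a difference of 0.33 (adjusted p = 0.0842), MATN1 was at most 0.0379 FPKM and SNORD103B was listed at 0. Beside CORO1A, MAPK3, the kinase ERK1, was 23.2 and 26.7 FPKM in parent and 19.3 and 21.9 with miR-4711-5p (-0.26, limma adjusted p = 0.0381, passed in 7 of 15 other settings), and YPEL3 differed by -0.12 (adjusted p = 0.589). GDPD3 was 2.08 and 2.07 FPKM in parent, 2.502 and 1.25 in NC-1 and 0.998 and 0.945 with miR-4711-5p (-0.64, limma adjusted p = 0.0343, passed in 8 of 14 other settings that held the gene). Against NC-1, MAPK3 differed by -0.18 (limma adjusted p = 0.132) and GDPD3 by -0.51 (limma adjusted p = 0.0768). SLX1A and SULT1A3, which lie in a duplicated stretch, were listed at 0, and SLX1A-SULT1A3 was at most 0.278 FPKM. The antisense gene CORO1A-AS1 overlaps CORO1A and has no value here under that name.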

How the data were processed

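Strand-specific mRNA libraries of BxPC-3 cells were read in single-end mode, and the deposited values are FPKM per gene symbol, which the authors made with the Cufflinks tools on hg19. The submitters' processing notes name TopHat2 2.1.1, Bowtie2 2.3.5.1, SAMtools 1.2, Cuffdiff and Cufflinks 2.2.1, and the study's methods give other versions of the mapping tools and Cuffnorm. The annotation, strand option and scaling option are not given in the sources used here. Such scaling fixes how a broad change is shared among genes, and reads of copied sequence can be split.

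The 12040 genes whose average was 1 FPKM or more entered the test, limma 3.58.1 on log2(FPKM + 1) in R 4.3.3 (all 3 groups in 1 fit, eBayes with a trend, 3 residual and 4.15 prior degrees of freedom, two-sided, Benjamini-Hochberg threshold 0.05). No count model was fitted to FPKM. Tested on simulated data for NC-1 against parent over 12040 genes, 91.1% of genes changed by 0.8 on the log2 scale were recovered, and 3.03% of calls were false. Each of 5 runs changed 200 of the more abundant genes, with noise independent between genes. The simulation therefore does not speak to smaller changes or to changes in many more genes. Replicates correlated at r of 0.985 to 0.990 across genes.

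Symbols were matched to GENCODE v44 models on GRCh37, 10568 by name and 594 through an older symbol, and 878 tested genes had no match. Copies were searched with blastn 2.17.0 at 75 nt or more. Sites were 7mer-m8, 7mer-A1 and 8mer in the canonical transcript, with pysam 0.24.0, Python 3.11.15, numpy 2.4.6, pandas 2.3.3 and matplotlib 3.10.9. The pair and all gene lists were chosen with earlier results of these data known. Genes were named by a rule: both genes and their families, in each pathway list the 4 highest and the 3 with the largest change against parent, the 3 measured neighbours on each side, the 5 nearest by pattern, and cell type markers of 1 FPKM or more. A neighbour that the rule names is not reported here. Alternatives were another scaling, pseudocount, filter or eBayes setting, a replicate block, only the groups compared, and leaving out each library.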

Additional observations from a re-analysis of the deposited data

How the results depend on the processing

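The differences of LAPTM5 and CORO1A with miR-4711-5p stayed negative under all 15 alternatives. At equal total FPKM, an alternative chosen after seeing the data, LAPTM5 moved to -0.51 against parent and -0.72 against NC-1, and CORO1A to -1.12 against parent. With a median-of-ratios scaling over tested genes, also chosen after seeing the data, LAPTM5 was -0.63 against parent. Without single libraries, LAPTM5 against NC-1 was between -0.79 and -0.76. The rise of LAPTM5 in NC-1 over parent kept its sign but did not pass without a filter (0.13, adjusted p = 0.052), with only the 2 groups compared (0.13, adjusted p = 0.0778), with eBayes without a trend (0.13, adjusted p = 0.104), or without any single library (0.12 to 0.14, limma adjusted p between 0.0789 and 0.131). CORO1A in NC-1 against parent turned to -0.048 without parent 2 and -0.03 without NC-1 1, with leave-one-out values between -0.048 and 0.11.

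Genes called for NC-1 against parent numbered 3279, but 2165 without a filter, and 1355 to 2296 without single libraries. For miR-4711-5p against parent, 5230 became 3164 to 5135, and against NC-1, 4763 became 2815 to 4639. Correlations of replicate deviations between groups were 0.061, 0.003 and -0.009, so no large effect shared by replicate number was seen. They cannot tell whether libraries of the same number shared a culture or preparation. With a replicate block, LAPTM5 in NC-1 over parent was 0.13 (adjusted p = 0.0618), and genes called numbered 2864, 4983 and 4564.

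Against parent, LAPTM4B turned to -0.053 without parent 1 and -0.01 without miR-4711-5p 1 (range -0.053 to 0.075 without single libraries), and HCLS1 to 0.048 at equal total FPKM. By Pearson r in place of distance, 0 of the 5 nearest genes were shared for either gene. Depth, which FPKM do not give, limits values under 1 FPKM.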
